A study of Mus musculus with 14 samples.

Results

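The genes described here are 9 transcription factor genes of the neuroendocrine and lung lineage in small cell lung cancer, Neurod1, Insm1, Prox1, Nkx2-1, Foxa1, Foxa2, St18, Myt1 and Hes6. They were taken by symbol from a table of gene counts for 32926 symbols, and all 9 had a row. The 14 RNA-seq libraries were made from poly(A) RNA of cell cultures grown from mouse small cell lung cancers. Of these, 3 were labelled Non-NE (non-neuroendocrine), 3 were labelled NE (neuroendocrine), and 8 form a time course labelled for days 0, 3, 7 and 21 of YAP5SA, a form of the coactivator YAP that escapes inhibition by the Hippo kinases, with 2 libraries a day. The labels tie all of them to adult lung tumours of mixed-strain mice with CGRPCreER/+, in which Cre is driven from the calcitonin gene-related peptide locus, and the floxed alleles Rbf/f, P53f/f and Ptenf/f. In 6 libraries the genotype field numbers the second of these alleles upwards from P54f/f to P59f/f, and P53f/f is taken here from the rest of their label text. The mice had been injected with TM, the label text gives an interval of 2 months, and the cells were grown in Hites medium. For 7 of the time-course libraries the labels add Rosa26rtTA and Tet-onYAP5SA, whereas those of day 0 replicate 1 name no transgene. The labels do not say whether libraries of a group came from separate cultures, so all p-values measure the spread between these libraries, which may be technical. Days 3, 7 and 21 have no transgene-free culture beside them, so YAP5SA and time in culture cannot be told apart.

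Small cell lung cancer of the neuroendocrine kind depends on lineage transcription factors shared with neurons and endocrine cells, and the basic helix-loop-helix factor NEUROD1 heads one of its subtypes. INSM1 is a zinc-finger repressor that acts downstream of proneural factors in endocrine and neuroendocrine cells, PROX1 is a homeodomain factor, and MYT1 and ST18 are zinc-finger factors of a family known from neurons and pancreatic endocrine cells. NKX2-1, FOXA1 and FOXA2 specify foregut and lung epithelium, neuroendocrine cells among them. HES6 is a HES family member that antagonises HES1, the Notch effector that represses proneural genes.

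Library totals ran from 6730816 to 10659524 counts. Values are CPM, counts relative to the library total, scaled by TMM, a method that sets libraries on a common scale from the bulk of their genes, and they are given as mean ± SD with n = 3 for Non-NE and NE and n = 2 for each day. In none of 32926 genes was the count of NE replicate 2 above that of day 0 replicate 1, and its counts were those of an 85.7% random draw of that library within sampling noise. The pair holds the same reads in part, so NE and day 0 are not independent. Comparisons across both sets were therefore fitted on 13 libraries without NE replicate 2, and no comparison of NE with day 0 is made. Both libraries stay in their group means, and in the fits of Non-NE with NE (6 libraries) and of the YAP5SA days (8 libraries). Since the labels do not say which group the shared reads came from, all values of NE and day 0 carry that doubt. Of the neuroendocrine markers, Chga, Syp and Ddc were below 1 CPM in every Non-NE library and above 100 CPM in every NE library. Calca was at 0 in all NE libraries, which allows up to 0.104 CPM, and Ncam1 went against its use as a marker, at 271 ± 188 CPM in Non-NE and 36.1 ± 24.2 CPM in NE libraries. The non-neuroendocrine markers Vim, Yap1, Wwtr1 and Cd44 were above 130 CPM in all Non-NE libraries.

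All 9 genes lie on mouse chromosomes 1, 2 and 12 (mm10, GENCODE M21), namely Neurod1 at chr2:79452521-79456751 on the minus strand, Insm1 at chr2:146221921-146225020 on the plus strand, Prox1 at chr1:190118035-190170714 on the minus strand, Nkx2-1 at chr12:56531958-56536908 on the minus strand and Foxa1 at chr12:57540628-57546916 on the minus strand. Foxa2 lies at chr2:148042877-148046969 on the minus strand, St18 at chr1:6487231-6860940 on the plus strand, Myt1 at chr2:181763332-181827797 on the plus strand and Hes6 at chr1:91411483-91414038 on the minus strand. Antisense transcripts overlap Nkx2-1, Prox1 and Neurod1, and since no source states whether counting used strand, reads of such pairs cannot be told apart. The Nkx2-1 partner Gm26973 held 12 to 204 counts per library against 580 to 12206 for Nkx2-1.

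Promoter windows of 300 bases, 250 before and 50 after an annotated start (RefSeq, GRCm38.p6), were at hand for 7 of the 9 genes, all but Insm1 and St18. They were searched on both strands for 5 short motifs, and the 3 windows printed here are those of members whose levels over the days differ most in shape, or that hold a motif of a factor measured below. The E-box form favoured by NEUROD1 was searched as CAGATG. The core motif of FOXA factors was searched as TGTTTAC. The core motif of NKX2-1 was searched as CACTTGA. The box of HES family factors was searched as CACGCG. The box of the TEAD partners of YAP was searched as GGAATG. Capitals mark the motif found, and each line runs 5′ to 3′ on the strand of the gene.
Foxa1, chr12:57546062-57546361, minus strand: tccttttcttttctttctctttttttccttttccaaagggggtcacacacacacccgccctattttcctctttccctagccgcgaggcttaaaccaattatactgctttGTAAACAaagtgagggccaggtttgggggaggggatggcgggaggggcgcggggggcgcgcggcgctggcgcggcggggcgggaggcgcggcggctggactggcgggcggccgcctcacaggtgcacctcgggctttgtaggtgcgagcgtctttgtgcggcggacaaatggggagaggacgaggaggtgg
Prox1, chr1:190170778-190171077, minus strand: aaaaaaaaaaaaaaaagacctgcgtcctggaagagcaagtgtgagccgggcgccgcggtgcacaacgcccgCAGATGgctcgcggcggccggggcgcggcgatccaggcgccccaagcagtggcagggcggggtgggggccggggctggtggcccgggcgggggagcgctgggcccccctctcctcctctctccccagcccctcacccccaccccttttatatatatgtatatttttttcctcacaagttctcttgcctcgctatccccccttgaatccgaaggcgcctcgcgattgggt
Nkx2-1, chr12:56536859-56537158, minus strand: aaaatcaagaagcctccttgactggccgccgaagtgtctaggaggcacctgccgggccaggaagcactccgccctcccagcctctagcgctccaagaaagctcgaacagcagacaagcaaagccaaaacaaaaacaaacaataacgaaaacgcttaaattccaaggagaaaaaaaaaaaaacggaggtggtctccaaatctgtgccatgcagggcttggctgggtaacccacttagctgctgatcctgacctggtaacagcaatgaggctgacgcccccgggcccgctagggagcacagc

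Counted from the start, the Foxa1 window held the FOXA core on the other strand, where it reads GTAAACA, at -141, and a Myt1 window held it at -105 and -8, against 3.65% of all 32851 windows. Prox1 held CAGATG at -179, against 17.2% of windows. CACGCG, in 9.27% of windows, lay at 23 in a Foxa2 window and at -112 in that of Neurod1. CACTTGA and GGAATG, in 3.06% and 14.7% of windows, were not among the letters of any of the 13 member windows, and the Nkx2-1 window held no motif of the 5. A match is a run of letters in a window and does not show that a factor binds there.

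**Figure D1:**
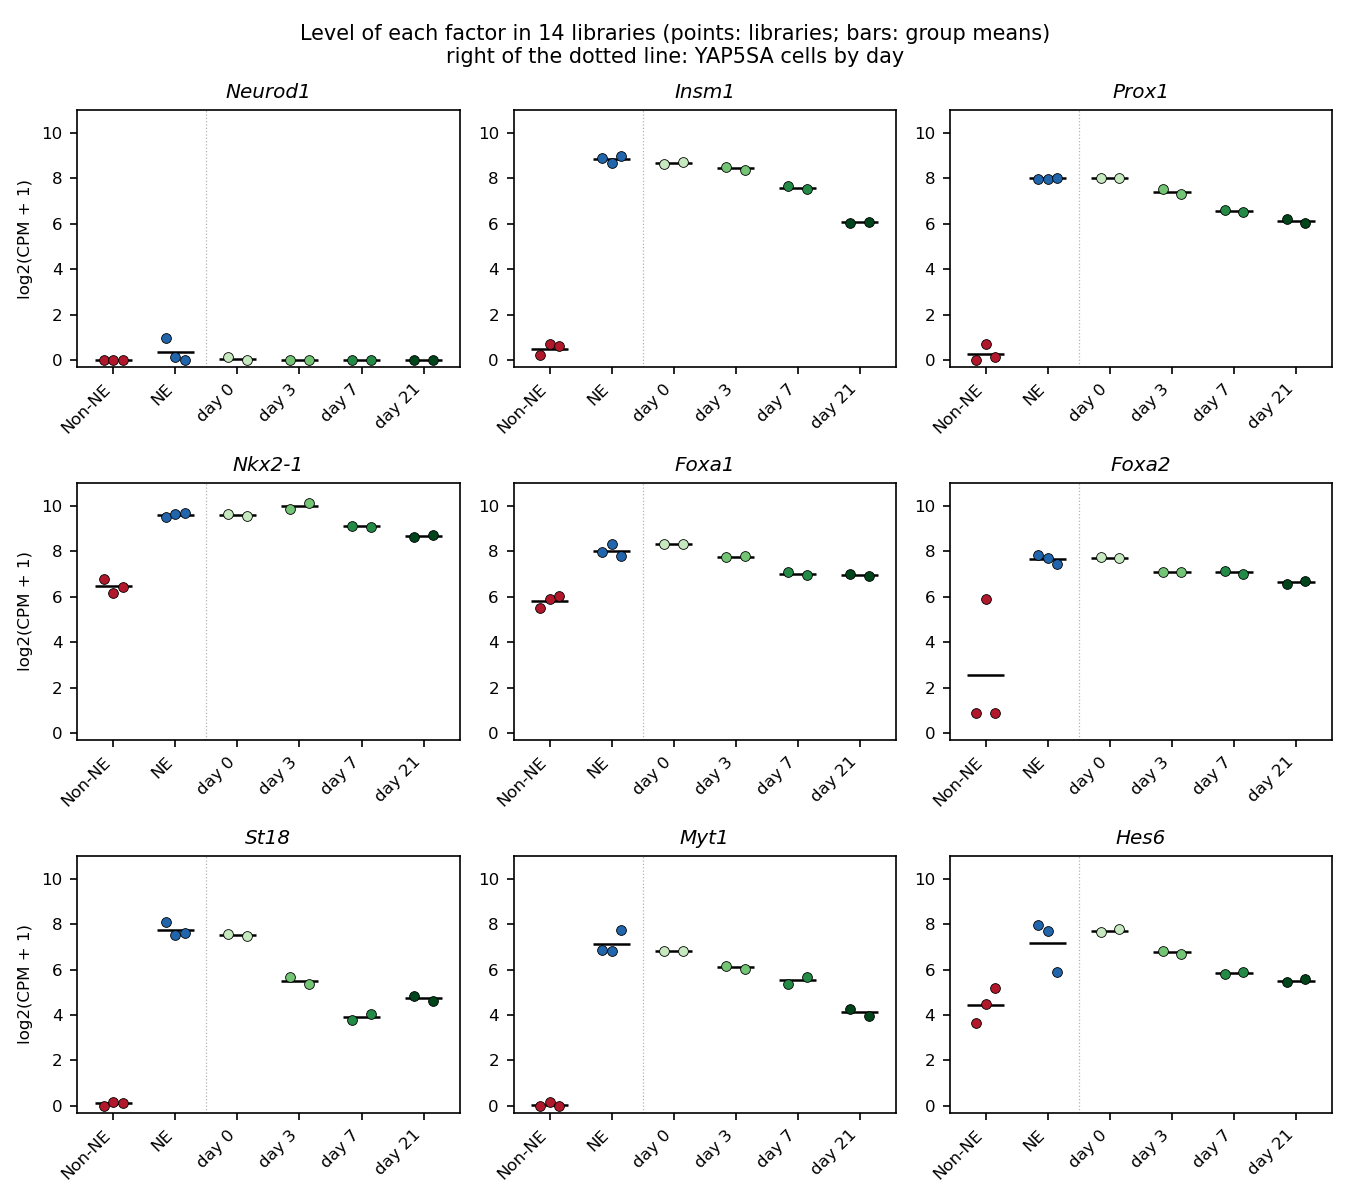
Level of each of the 9 factors in the 14 libraries, as log2(CPM + 1), with a point per library and a bar at the mean of these log values. Non-NE (red) and NE (blue) libraries stand left of the dotted line and YAP5SA libraries (green, darker with later days) right of it, and Non-NE lies lowest for every factor except Neurod1, which is near 0 throughout.

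In Non-NE cells the neuroendocrine factors Insm1, Prox1, St18 and Myt1 were almost absent, whereas the lung lineage factors Nkx2-1 and Foxa1 were lower but still present. Foxa2, also a lung lineage factor, was at 0.827 and 0.850 CPM in Non-NE replicates 1 and 3 and at 58.4 CPM in replicate 2. Insm1 had levels of 0.165, 0.611 and 0.531 CPM among Non-NE libraries, against 474, 404 and 510 CPM in the NE libraries. Each Non-NE value rests on 1 to 5 reads, and the groups are far apart. In edgeR's quasi-likelihood test the log2 change was -9.97 (SE 0.38, adjusted p = 2.51e-05). Prox1 behaved alike, with 0, 0.611 and 0.106 CPM in Non-NE and 249, 253 and 261 CPM in NE libraries (log2 change -9.94, SE 0.59, edgeR adjusted p = 5.79e-05). The spread of Prox1 among NE libraries was the smallest of the 8 tested members relative to its mean.

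St18 and Myt1 were represented by 2 reads and 1 read in the 3 Non-NE libraries together. St18 held 272, 186 and 196 CPM in the NE libraries, which makes it 2601-fold lower in Non-NE over pooled counts (95% counting interval 720 to 21478). Myt1 held 114, 112 and 215 CPM in NE libraries, 3455-fold lower in Non-NE (620 to 136489). These intervals cover counting error only, and their width comes from the few reads on the Non-NE side. Both members passed edgeR (adjusted p = 2.51e-05 and 5.56e-05).

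Of the lung factors, Nkx2-1 and Foxa1 kept a level that all libraries showed. Nkx2-1 read 109, 70.9 and 85.4 CPM in Non-NE libraries, against 726, 809 and 811 CPM in NE libraries, a log2 change of -3.19 (SE 0.23, edgeR adjusted p = 0.000104). Foxa1 read 44.99, 58.2 and 65.0 CPM in Non-NE and 248, 318 and 221 CPM in NE libraries, a log2 change of -2.27 (SE 0.24, edgeR adjusted p = 0.000515). The groups do not overlap for either gene, and every Non-NE library holds at least 272 reads of both.

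Foxa2 split the Non-NE libraries. Replicates 1 and 3 held 0.827 and 0.850 CPM, or 5 and 8 reads, and replicate 2 held 58.4 CPM, or 478 reads, against 228, 211 and 172 CPM in the NE libraries. Every Non-NE library lay below every NE library, but the log2 change of -3.38 had an SE of 1.46 and did not pass edgeR (adjusted p = 0.103). Without Non-NE replicate 2 the log2 change was -7.92 (adjusted p = 0.000166), and both limma-voom and the fit with all 14 libraries called the gene lower. The fit with all 14 libraries shares 1 estimate of the spread with the YAP5SA libraries and keeps the shared reads of NE replicate 2. Of 14 alternatives, 10 left Foxa2 uncalled. DESeq2 gave no adjusted p for it.

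Hes6 was more variable within both groups. Its values were 11.6, 21.4 and 35.1 CPM in Non-NE libraries, against 252, 206 and 58.4 CPM in NE libraries. NE replicate 3 lies much closer to the Non-NE range than to its own group, without overlap. The log2 change was -2.95 (SE 0.64, edgeR adjusted p = 0.0102). Neurod1 had 0 reads in all Non-NE libraries, which allows up to 0.127 CPM, against 10, 1 and 0 reads in the NE libraries. It was too low to be tested in any comparison.

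Of the 8 tested members 7 were lower in Non-NE than in NE and 0 higher, against 22.8% of 12966 tested genes called lower, 20.0% called higher and 42.8% called in either direction. Over all genes these were 2594 higher and 2960 lower calls, and with libraries scaled by their totals alone 1930 higher and 3757 lower. The members' median log2 change was -6.66, against -0.02 over all tested genes. Insm1, Prox1, St18 and Myt1 passed the filter on low counts only through the NE libraries and so had to differ, and the count is a description. In bulk RNA, fewer cells of a type and less RNA per cell cannot be told apart. Markers of fibroblasts moved with the groups, and all 6 tested of 12 were higher in Non-NE. These 6 averaged at most 1.01 CPM in NE and passed the filter only through Non-NE, so their direction was fixed by the filter. The summed fibroblast levels were 1644 to 8144 CPM in Non-NE and 1.93 to 7.004 CPM in NE libraries. Thy1 and Tcf21, not tested, were at 0 in all Non-NE libraries, and Thy1 averaged 1.35 CPM in NE. Of the summed endothelial list, at 1.10 to 3.61 CPM in Non-NE and 215 to 390 CPM in NE libraries, Vwf made up nearly all in NE cells, where Cdh5, Kdr and Emcn were at 0. The part of other cells in the members' change was not tested.

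**Figure D2:**
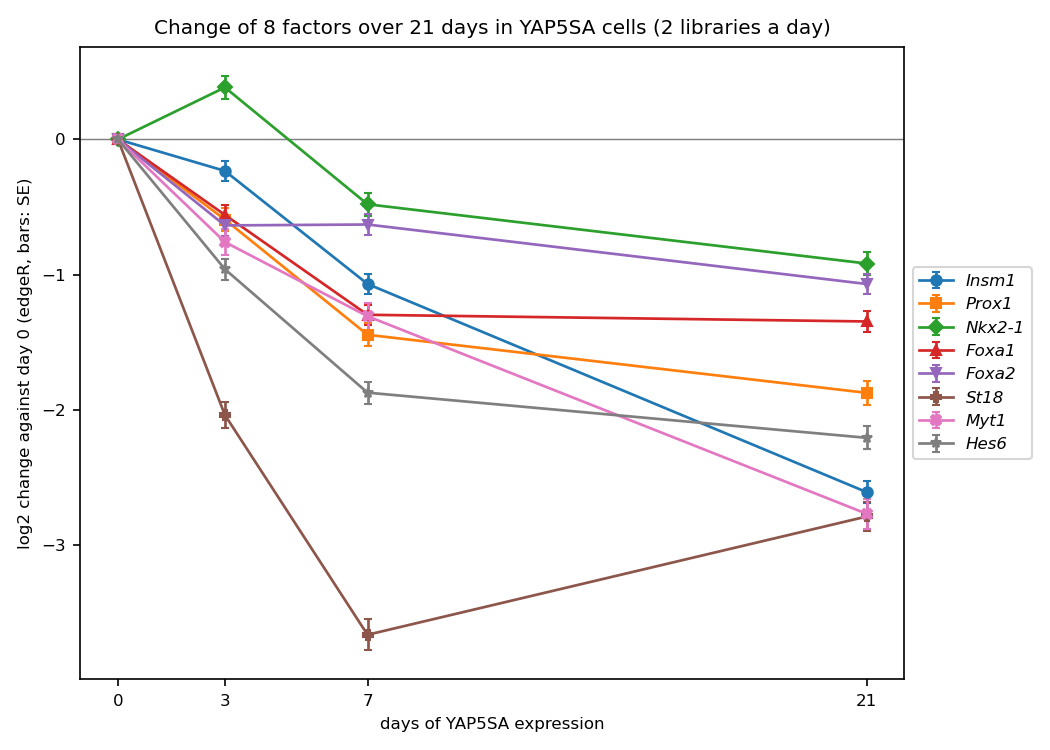
Change of the 8 tested factors against day 0 in YAP5SA cells, as the edgeR log2 change with its SE on the vertical axis and the day on the horizontal axis. Nkx2-1 lies above 0 at day 3 and below it later, St18 is lowest at day 7 (-3.66) and higher again at day 21 (-2.79), and Insm1 and Myt1 keep falling to day 21.

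Under YAP5SA all 8 measurable factors were lower at day 21 than at day 0, but they did so on different schedules, and none came near the Non-NE level of Insm1, Prox1, St18 or Myt1. St18 and Hes6 had dropped most by day 3, Insm1 fell mainly after day 3, Foxa1 reached its final level by day 7, and Nkx2-1 was higher at day 3 before it fell. The level of Yap1 was not constant, with means of 7.51, 1149, 764 and 213 CPM on days 0, 3, 7 and 21. Its part in these schedules was not tested. At days 3, 7 and 21 against day 0, 7, 8 and 8 of the 8 tested members were lower and 1, 0 and 0 higher in edgeR. The shares of all 13996 tested genes called lower were 22.4%, 33.8% and 34.0%, those called higher were 26.2%, 37.2% and 37.7%, and those called either way 48.6%, 71.0% and 71.7%. At day 7 that is 5208 genes higher and 4724 lower, and 4149 higher and 6116 lower with libraries scaled by their totals alone. The members' median log2 changes were -0.61, -1.30 and -2.04, against 0.01, 0.03 and 0.02 over all tested genes. The 3 comparisons share the day 0 libraries. The fits estimate the spread from 2 libraries per day, and with all 14 libraries in a fit only the fall of St18 passed at day 3, while 6 members were still called lower at day 7, all but Nkx2-1 and Foxa2, and 7 at day 21, all but Foxa2.

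Insm1 stood at 398 and 415 CPM on day 0, 366 and 332 CPM on day 3, 203 and 182 CPM on day 7 and 65.3 and 66.2 CPM on day 21. The days do not overlap, and each lies below the one before. The first step was small, with a log2 change of -0.23 at day 3 (SE 0.07, edgeR adjusted p = 0.0119) that was lost without day 0 replicate 2 or day 3 replicate 2 (adjusted p = 0.123 and 0.144). The change reached -1.07 at day 7 and -2.61 at day 21 (SE 0.08 for both). Of the log2 change at day 21, 8.93% was present by day 3 and 41.0% by day 7, the lowest share of the 8 members on day 7.

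Prox1 went down by a larger share early. Its values were 254 and 256 CPM on day 0, 185 and 156 CPM on day 3, 96.2 and 89.5 CPM on day 7 and 73.0 and 64.0 CPM on day 21. All 4 days are apart. By day 7 the gene had made 77.1% of its log2 change at day 21, which was -1.87 (SE 0.09, edgeR adjusted p = 6.53e-16).

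The MYT family members took different paths. St18 stood at 188 and 176 CPM on day 0, 49.4 and 40.0 CPM on day 3, 12.9 and 15.6 CPM on day 7 and 28.0 and 23.9 CPM on day 21. Both libraries of day 21 lie above both of day 7 and below both of day 3, so the level had a low point within the series. The log2 change against day 0 was -2.04 at day 3 (SE 0.10), -3.66 at day 7 (SE 0.12) and -2.79 at day 21 (SE 0.10), and day 21 exceeded day 7 by 0.87 (SE 0.14, edgeR adjusted p = 8.79e-06), a call lost with all 14 libraries in a fit (adjusted p = 0.0735). Myt1 fell at each step, with 113 CPM in both libraries of day 0, 70.0 and 65.0 CPM on day 3, 40.3 and 50.6 CPM on day 7 and 18.0 and 14.7 CPM on day 21. Its log2 change at day 21 was -2.77 (SE 0.11), close to that of St18, with 47.2% of it made by day 7 against 131% for St18.

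Nkx2-1 was the only member above its day 0 level on any day. It read 808 and 743 CPM on day 0, 917 and 1122 CPM on day 3, 562 and 541 CPM on day 7 and 389 and 420 CPM on day 21, without overlap between days. Day 3 was 1.31-fold above day 0 (log2 change 0.38, SE 0.09, edgeR adjusted p = 0.00062), a call lost with all 14 libraries in a fit. From day 3 to day 7 it fell by 0.86 on the log2 scale, and at day 21 it was 1.89-fold below day 0. Its antisense partner Gm26973 cannot be separated from it where both are transcribed.

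The FOXA paralogues also differed in timing. Foxa1 had 318 CPM in both libraries of day 0, 216 and 219 CPM on day 3, 134 and 123 CPM on day 7 and 127 and 119 CPM on day 21. Days 7 and 21 overlap, and the change between them did not pass the test (log2 change -0.05, SE 0.08, edgeR adjusted p = 0.618). Foxa2 had 211 and 206 CPM on day 0, 136 and 134 CPM on day 3, 140 and 128 CPM on day 7 and 92.4 and 104 CPM on day 21. For this gene it is days 3 and 7 that overlap (log2 change 0.01, SE 0.08, edgeR adjusted p = 0.950). At day 21 Foxa1 had fallen by 1.35 and Foxa2 by 1.07 on the log2 scale against day 0 (SE 0.07 and 0.08).

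Hes6 stood at 201 and 218 CPM on day 0, 113 and 104 CPM on day 3, 55.7 and 57.7 CPM on day 7 and 42.2 and 47.2 CPM on day 21. The days are apart, and 84.9% of the change at day 21 was present by day 7. At day 21 it had fallen by 2.21 on the log2 scale (SE 0.08, edgeR adjusted p = 8.12e-18). Neurod1 had 1 read in a day 0 library and 0 in the other 7 YAP5SA libraries.

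Between consecutive days, 7 of 8 tested members fell from day 3 to day 7 with Foxa2 not called, and 6 fell from day 7 to day 21 while St18 rose and Foxa1 was not called. The shares of all tested genes were 26.1% lower and 29.5% higher for the earlier step and 24.2% lower and 26.1% higher for the later step, or 55.6% and 50.3% in either direction. From day 3 to day 7 that is 4128 genes higher and 3657 lower, and 3140 higher and 5076 lower with libraries scaled by their totals alone. Members' median log2 changes over these steps were -0.84 and -0.43, against 0.02 and 0.01 over all genes. With all 14 libraries in a fit, 4 members fell in the earlier step, and 2 fell and 0 rose in the later step. Of the other-cell markers, the summed immune list was at 114 to 137 CPM on day 21 and 6.85 to 7.504 CPM on day 0, with Csf1r at 115 CPM on day 21 making up most of it and Ptprc and Tyrobp among those at 0. The fibroblast sum was 50.9 to 56.2 CPM on day 21 and 6.02 to 6.57 CPM on day 0, with Postn, Tcf21, Dpt and Twist2 at 0 on day 21. The endothelial sum was lower, at 114 to 140 CPM on day 21 and 368 to 381 CPM on day 0, nearly all of it Vwf (122 CPM on day 21, 373 CPM on day 0), with Emcn at 0 on both days. The part of these transcripts in the members' change was not tested.

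**Figure D3:**
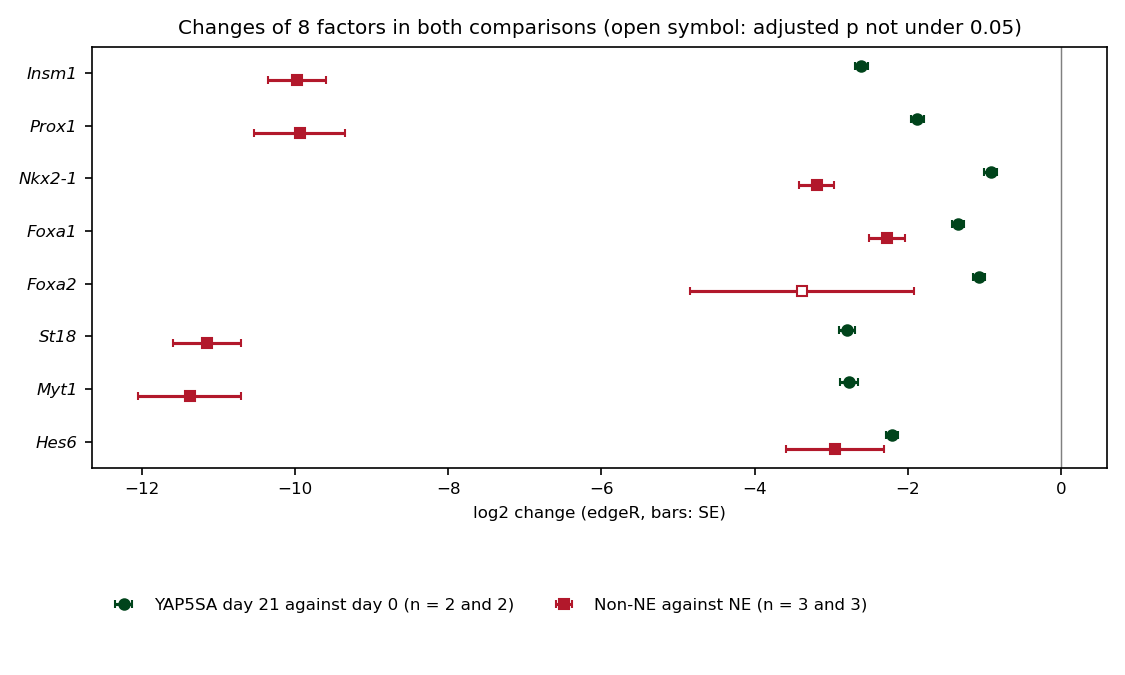
Log2 changes of the 8 tested factors with their SE from edgeR, for YAP5SA day 21 against day 0 (green circles) and Non-NE against NE (red squares). The comparisons come from separate fits, and their baselines share reads through day 0 replicate 1 and NE replicate 2. Insm1, Prox1, St18 and Myt1 lie near -10 or below in the second comparison and between -1.87 and -2.79 in the first; the fitted values of St18 and Myt1 in Non-NE rest on 2 reads and 1 read. The open square of Foxa2 marks an adjusted p of 0.103.

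At day 21 the YAP5SA cells held far more Insm1, Prox1, St18 and Myt1 than Non-NE cells did, while the differences of Hes6 and Foxa2 from Non-NE did not pass the test. Insm1 was at 65.8 ± 0.642 CPM on day 21 and 0.436 ± 0.238 CPM in Non-NE libraries (log2 difference 7.11, SE 0.23, edgeR adjusted p = 1.48e-08). Prox1 was at 68.5 ± 6.40 CPM on day 21 and 0.239 ± 0.327 CPM in Non-NE libraries, a log2 difference of 8.01 (SE 0.40). By pooled counts St18 was 307-fold lower in Non-NE than on day 21 (95% counting interval 84.5 to 2540), and Myt1 was 388-fold lower (69.1 to 15350). These 4 genes were almost absent from the same Non-NE libraries in the comparison with NE, so the match was fixed by those values.

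Of the lung factors, Nkx2-1 and Foxa1 differed less. Nkx2-1 was 4.57-fold higher on day 21 than in Non-NE (log2 difference 2.19, SE 0.18, edgeR adjusted p = 5.10e-06) and Foxa1 was 2.19-fold higher (log2 difference 1.13, SE 0.15, edgeR adjusted p = 0.000135). For Hes6 the difference was 0.97 with an SE of 0.53 (edgeR adjusted p = 0.148), although both day 21 libraries lay above the highest Non-NE library. For Foxa2 it was 2.28 with an SE of 1.16 (edgeR adjusted p = 0.119), and the ranges were apart, with 92.4 and 104 CPM on day 21 and at most 58.4 CPM in Non-NE. Without Non-NE replicate 2 it was 6.83 (edgeR adjusted p = 7.56e-08). In all, 6 of 8 tested members were higher on day 21 and 0 lower, against 30.8% of 14820 tested genes higher, 24.5% lower and 55.3% either way. Insm1, Prox1, St18 and Myt1, near 0 in Non-NE, passed the filter only through other groups and could hardly be lower, so the count is a description.

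The difference between the change over 21 days of YAP5SA and the change from NE to Non-NE was itself tested. It was positive, so the fall under YAP5SA was the smaller, for Insm1 (7.39, SE 0.30), Prox1 (8.01, SE 0.51), Nkx2-1 (2.18, SE 0.26), Foxa1 (0.70, SE 0.22), St18 and Myt1. These are 6 of 8 tested members, with 0 negative, against 21.2% of tested genes called positive, 11.6% called negative and 32.8% either way. Those are 3149 positive and 1715 negative calls, and 3602 and 1203 with libraries scaled by their totals alone. Insm1, Prox1, St18 and Myt1 passed the filter only through groups other than Non-NE. The size of their difference rests on the few Non-NE reads, and the count of members is a description. The Foxa1 call (adjusted p = 0.0348) was lost in 7 of the 17 alternatives tried, among them those without either library of day 0 or of day 21. For Foxa2 the difference was 2.22 (SE 1.70, edgeR adjusted p = 0.356), and 6.77 without Non-NE replicate 2 (adjusted p = 3.74e-07). For Hes6 the difference was 0.53 (SE 0.78, edgeR adjusted p = 0.655), and it ran from -0.88 to 1.23 when NE replicate 1 or 3 was left out. These values rest on a single NE library each, assumed to vary like the other groups, and neither passed the test. Between day 21 and Non-NE the sets of libraries differ together with the state, and the 2 cannot be told apart. The difference of changes takes each change within its own set, so a constant offset between the sets cancels. The kind of change still differs together with the set.

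Ordered by level, NE and day 0 stood at or next to the top for every tested member except Nkx2-1, where day 3 was highest, and Non-NE was lowest for all 8. The relation of NE to day 0 is not read, since they share reads. The overlaps between neighbours were those of days 7 and 21 for Foxa1, days 3 and 7 for Foxa2, and NE and day 3 for Hes6. Set per kilobase of annotated exon, which allows levels of different genes to be compared, Nkx2-1 was the highest of the 9 in every group, with 31.2 CPM per kb in Non-NE, 275 CPM per kb in NE and 142 CPM per kb on day 21. Insm1 was the next highest in NE and on days 0, 3 and 7, at 149 CPM per kb in NE, but ranked 5 on day 21 with 21.2 CPM per kb, below Foxa2 with 41.3, Foxa1 with 37.0 and Hes6 with 24.7 CPM per kb. In Non-NE cells Foxa1 (16.9 CPM per kb) and Hes6 (12.5 CPM per kb) came after Nkx2-1.

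Genes with the most similar profiles were sought among 13674 genes with a mean of at least 1 CPM, as the smallest root mean square difference of centred log2(CPM + 1) over 13 libraries. These libraries share group and depth, so likeness is a description. Insm1 was nearest to Elavl3, a neuronal RNA-binding protein gene (difference 0.26). Prox1 was nearest to Cadps2, a gene of dense-core vesicle release (0.19), which had 0 counts in Non-NE libraries, and to the kinase gene Wnk2 (0.28). Nkx2-1 was nearest to Epm2a (0.20), which likewise peaked at day 3 (26.0 ± 2.11 CPM, against 20.97 ± 0.0739 CPM on day 0), and to Rasip1 (0.23).

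St18 was nearest to Sox1 (0.35) and Nov (0.40), which shared the low point at day 7. Nov stood at 736 ± 21.9 CPM on day 0, 313 ± 52.7 CPM on day 3, 69.3 ± 1.51 CPM on day 7 and 164 ± 10.9 CPM on day 21. Myt1 was nearest to St8sia3 and Celsr3 (0.31 each), and Hes6 to Arl4a (0.28) and Ppil6 (0.40). Foxa1 had Nudt14 and Sh2d3c at 0.20 each. The nearest genes to Foxa2, Fgf13 (0.45) and Slc6a17 (0.55), were the most distant of all, and both were also uneven among Non-NE libraries (13.5 ± 23.2 and 2.47 ± 4.00 CPM).

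Among 19 other neural basic helix-loop-helix genes and their inhibitors 9 were tested, of which 7 fell and 2 rose by day 21, against 34.0% lower and 37.7% higher over all tested genes. The ID genes, which block such factors by dimerising with them, were all lower by day 21. Id2 fell 8.55-fold, Id4 4.07-fold, Id3 4.01-fold and Id1 by 1.17 on the log2 scale. Id1 averaged 120 CPM on day 3, above its 75.6 CPM on day 0. Tcf12 averaged 195 CPM on day 21 and 94.1 CPM on day 0. Tcf3 and Tcf4 went the other way, at 66.5 and 65.4 CPM on day 21 and 99.2 and 80.9 CPM on day 0. In the comparison of Non-NE with NE, 3 of 8 tested genes of the list were higher and 2 lower, Id4 among the lower. Over all tested genes 20.0% were higher and 22.8% lower there.

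**Figure D4:**
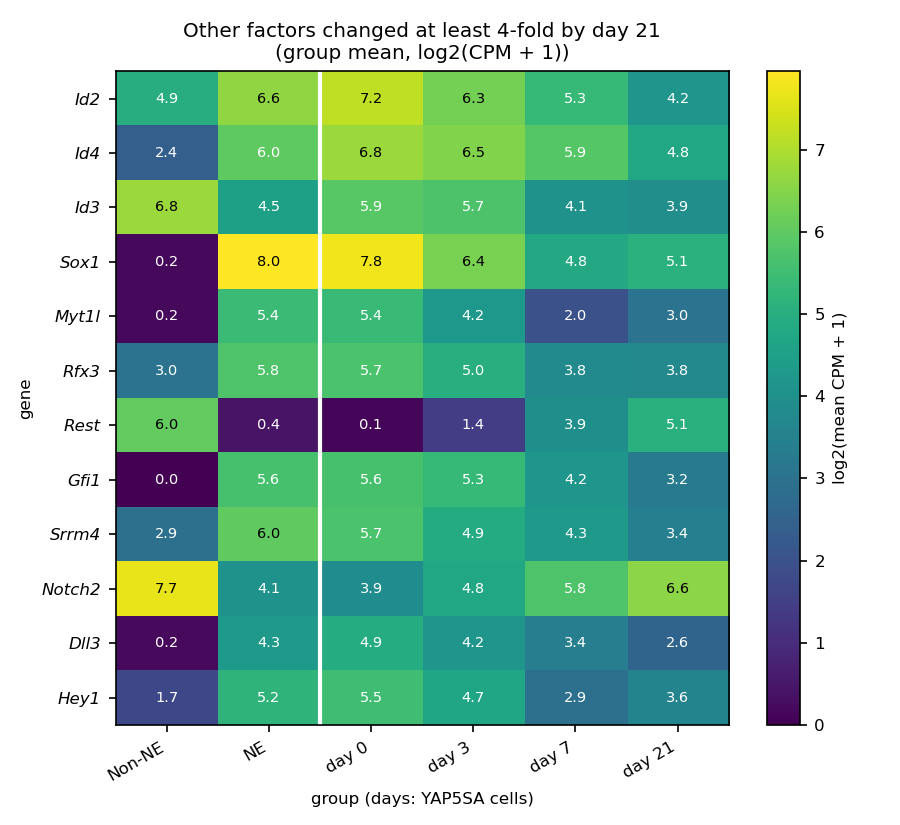
Group means as log2(mean CPM + 1) for listed neural, Notch and INSM1-partner genes that passed the test with at least a 4-fold change by day 21 and 10 CPM in a group. Columns are Non-NE, NE and the 4 days. Sox1 and Myt1l are near 0 in Non-NE, and Rest and Notch2 run the other way.

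Other neural and endocrine factors fell in 12 and rose in 3 of 15 tested by day 21, of 29 listed. Over all tested genes 34.0% were lower and 37.7% higher. Sox1 was 6.59-fold lower on day 21, Myt1l, the neuronal paralogue of Myt1, was 5.49-fold lower and Rfx3, a factor of ciliated and endocrine cells, 4.07-fold lower. In the comparison of Non-NE with NE, 7 of 13 tested were lower and 3 higher, against 22.8% and 20.0% of all tested genes. Among the lower was Sox1 (0.117 ± 0.123 CPM in Non-NE, 247 ± 25.9 CPM in NE). Many listed genes near 0 in one group were tested only if high in another, so that part of these directions was fixed by the filter.

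Among partners of INSM1, a repressor that recruits LSD1 and corepressors through its SNAG domain, 7 of 15 tested fell and 5 rose by day 21. This is near the background of 34.0% lower and 37.7% higher over all tested genes. Gfi1, another SNAG factor of neuroendocrine cells, was 5.68-fold lower, at 8.46 ± 0.0358 CPM on day 21 and 48.8 ± 1.54 CPM on day 0, and had 0 counts in Non-NE libraries. Rcor2, an LSD1 corepressor, was lower on day 21 by 1.90 on the log2 scale, and Kdm1a, which encodes LSD1, did not pass the test (log2 change 0.09, edgeR adjusted p = 0.303). Rest, the repressor of neuronal genes, averaged 32.2 ± 3.30 CPM on day 21 and 0.0926 ± 0.131 CPM on day 0, where day 0 held 2 reads. Srrm4, a splicing factor that inactivates Rest, fell 5.06-fold.

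Notch pathway genes and HES6 partners went both ways, with 8 of 18 tested lower and 5 higher by day 21, against 34.0% lower and 37.7% higher over all tested genes, so the count is near the background. Hes1, which HES6 opposes, rose to 79.0 ± 1.04 CPM on day 21, against 38.7 ± 2.53 CPM on day 0 (log2 change 1.05, edgeR adjusted p = 7.95e-11), while the difference between Non-NE and NE did not pass the test (log2 change 0.20, edgeR adjusted p = 0.857). Notch2 was 6.997-fold higher, and the ligand genes Dll3 and Dll1 were lower, Dll3 by 5.82-fold. Hey1, another Notch effector, was 4.01-fold lower on day 21.

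Genes that NKX2-1 and FOXA factors are known to drive in lung epithelium were mostly higher on day 21 than on day 0, but not on every day. Of 14 listed surfactant and secretory genes 10 were tested, and by day 21 9 were higher and 1, Muc1, lower (21.8 CPM on day 21, 97.2 CPM on day 0). The shares over all tested genes were 37.7% higher and 34.0% lower. The lipid transporter Abca3 was at 142 CPM on day 21 and 96.6 CPM on day 0, the protease gene Napsa at 36.5 CPM on day 21 and 1.40 CPM on day 0, and the club cell gene Scgb1a1 at 19.8 CPM on day 21 and 0.0926 CPM on day 0. Slc34a2 and Sftpd had 0 counts on day 0 and averaged 14.2 and 13.6 CPM on day 21. Sftpa1, Sftpb, Sftpd, Scgb1a1 and Slc34a2, near 0 on day 0, were tested only because they rose. On day 7, 6 were higher than on day 0 and 2 lower, against 37.2% and 33.8% of all tested genes. Sftpc, a surfactant gene of alveolar type II cells, averaged 3.59 CPM on day 0, 1.18 CPM on day 3, 0.203 CPM on day 7 and 6.11 CPM on day 21. It was called lower on days 3 and 7 and higher on day 21. In Non-NE against NE, 4 of 5 tested (Sftpc, Abca3, Napsa and Muc1) were lower and 0 higher. Over all tested genes 22.8% were lower and 20.0% higher there. Sftpc, Napsa and Muc1 averaged 0.152, 0.117 and 0.696 CPM in Non-NE and passed the filter only through NE. Whether these genes followed Nkx2-1 and Foxa1, also lower in Non-NE, was not tested.

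Other lung and foregut factors rose in 12 and fell in 9 of 24 tested by day 21, against 37.7% higher and 34.0% lower over all tested genes. Hopx, a gene of alveolar type I cells, was at 174 ± 15.9 CPM on day 21 and 0.279 ± 0.129 CPM on day 0, Gata6 at 44.8 ± 0.462 CPM on day 21 and 0 on day 0, and Etv4 at 33.4 ± 0.0131 CPM on day 21 and 0.652 ± 0.00590 CPM on day 0. Hopx, Gata6 and Etv4, near 0 on day 0, passed the filter only through later days and could hardly be called lower. That part of the count was fixed by the filter. The ETS factor gene Ehf was lower, at 80.0 ± 5.10 CPM on day 21 and 423 ± 13.4 CPM on day 0. Neuroendocrine products, the output of the program, were lower in 20 and higher in 3 of 23 tested by day 21 and lower in 19 and higher in 2 of 21 in Non-NE against NE, with median log2 changes of -1.92 and -9.60. The shares over all tested genes were 34.0% lower and 37.7% higher at day 21, and 22.8% lower and 20.0% higher in Non-NE. Most products lower in Non-NE, Chga, Scg3, Snap25 and Pcsk1 among them, were near 0 there and passed the filter only through NE.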

How the data were processed

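STAR 2.4.2, featureCounts and the build mm10 are named, per the submitters' processing notes. The deposited table holds raw counts per gene symbol as the authors made them, and the annotation and strand setting are not given in the sources used here. All 14 columns were used and 0 left out. From these counts edgeR 4.0.16 (R 4.3.3) was used for TMM scaling, its own filter on low counts, and the quasi-likelihood test with Benjamini-Hochberg adjustment over all tested genes at 0.05. Non-NE and NE libraries were fitted together (12966 genes), the YAP5SA libraries together (13996 genes), and comparisons across both on 13 libraries (14820 genes). The scripts were tested on simulated data. SEs are the log2 change over the square root of the test's F value. Alternatives were DESeq2 1.42.0 size factors and test, limma-voom (limma 3.58.1), scaling by totals, other count filters, a replicate block, all 14 libraries in 1 fit, and leaving out each library. The members and lists were chosen with earlier results of these data known. Genes named from other lists are up to 4 per list with a call, at least a 4-fold change and 10 CPM in a group and the nearest profiles, and others named were chosen after their values were seen. Some results are not reported here.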

Additional observations from a re-analysis of the deposited data

Results flagged for a closer look

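For 6 factors the change over 21 days of YAP5SA and the change from NE to Non-NE differed in edgeR's test of the difference itself. The adjusted p of that difference was 1.43e-07 for Insm1, 2.03e-06 for Prox1, 6.05e-07 for St18, 7.63e-06 for Myt1, 0.000185 for Nkx2-1 and 0.0348 for Foxa1. Each of them changed less under YAP5SA. For Insm1, Prox1, St18 and Myt1 the size of the difference rests on the few reads in Non-NE. The log2 change of Insm1 was -2.61 at day 21 and -9.97 in Non-NE against NE, and that of Nkx2-1 was -0.92 and -3.19. These changes come from the separate fits of each set, whose baselines share reads. The difference was tested on 13 libraries without NE replicate 2. Leaving out either library of day 0 or of day 21 gave an adjusted p of 0.0751 to 0.111 for Foxa1. Each change was taken within its own library set, so a constant offset between the sets cancels. The kind of change still cannot be told apart from the set. No group held as many as 4 libraries, so single libraries were not screened.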

How the results depend on the processing

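Of 832 alternative values of the members' log2 changes 790 kept their direction and side of the threshold, 27 lost a call, 8 gained one and 7 changed sign. With all 14 libraries in 1 fit, the members called were 0 higher and 1 lower at day 3 against day 0, 4 lower at day 7 against day 3, and 0 higher and 2 lower at day 21 against day 7. All genes called by that fit were 792 higher and 249 lower at day 3, against 3673 and 3131, and 4406 higher and 4591 lower in Non-NE against NE, against 2594 and 2960. Higher and lower calls of that fit were 2639 and 1950 at day 7, against 5208 and 4724, and 2728 and 1858 at day 21, against 5273 and 4759. They were 791 and 490 for day 7 against day 3, against 4128 and 3657, and 274 and 241 for day 21 against day 7, against 3654 and 3388. Genes lower on day 21 than in Non-NE were 2290 and 2269 without day 21 replicate 1 and 2, against 3636, and genes with a negative difference of changes were 956 to 1013 without any 1 library of days 0 and 21, against 1715. The Foxa2 change from day 3 to day 7 was -0.136 with library totals and -0.016 with all 14 libraries, and ran from -0.063 to 0.071 when a library was left out. The Foxa1 change from day 7 to day 21 was 0.0088 with library totals and -0.117 to 0.015 when a library was left out. With a single NE library left, the Hes6 difference of changes ran from -0.88 to 1.23.

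Same-numbered libraries did not deviate together (correlations of -0.113 to 0.0562). With the replicate block Foxa2 was called lower in Non-NE (-5.70, edgeR adjusted p = 0.0462) and the Foxa1 difference of changes was not called (0.68, adjusted p = 0.0533), and it changed no other member's call. Scaling by totals moved the median of all genes to -0.28 in Non-NE against NE. At these depths a gene with 0 reads in a group may still reach 0.104 to 0.153 CPM.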
